A study of Rattus norvegicus with 6 samples.

Results

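The comparison set the pineal gland against the subfornical organ of adult male Sprague-Dawley rats. Of the 6 one-colour arrays of the series, 2 carried pineal gland and 1 carried subfornical organ, so 3 arrays entered. Of 35129 probes, the 16865 with a single gene symbol were used, and they gave 12167 genes with a value on all arrays. Both tissues came from normal rats and were cut out by infrared laser capture, and 3 ng of RNA was amplified in 2 rounds before labelling. The subfornical organ RNA was a pool of 2, and the labels do not say what was pooled. The sources do not say whether separate animals gave the 2 pineal glands, so every p-value here reflects the scatter of 1 pair of arrays, and that scatter may be technical. Subcommissural organ, ependyma lining the third ventricle and pooled total brain had 1 array each and are given for reference.

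Both structures are circumventricular organs, small midline regions whose vessels lack the usual barrier. The pineal gland is made mostly of pinealocytes, which share an origin and many genes with retinal photoreceptors and which turn tryptophan into serotonin and then melatonin. The subfornical organ is a patch of neurons and glia under the fornix, covered by ependyma, that senses angiotensin and sodium in the blood. The comparison sets a neuroendocrine gland beside a sensory brain region of the same class.

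Most measured phototransduction genes were called higher in the pineal gland, and most measured myelin, astrocyte and motile cilia genes were called lower. Tph1, the enzyme that hydroxylates tryptophan, was at an intensity of 547 and 352 on the pineal gland arrays and 0.475 in the subfornical organ. Mog, a protein of the outer myelin sheath, was at 0.389 and 0.703 against 327. Crygs, a lens crystallin, was at 0.139 and 0.171 against 139, and it was at 0.386 to 0.737 on the other 3 arrays. Penk, the precursor of the enkephalins, was at 205 and 149 against 2.84.

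Intensities are the authors' processed values, with a median near 1 on each array. A gene counted as measured when the higher tissue reached 1.05, the pooled median, and 9003 genes did. Differences are log2 values, mean of the pineal gland arrays minus the subfornical organ. Where the lower side was under 1.05, a fold is written as at least so many fold, with the lower side set at 1.05. A fit with limma called 632 genes higher in the pineal gland (7.02%) and 1234 lower (13.7%) at an adjusted p under 0.05. The standard error was 0.73 for every gene, so a call was in effect a difference of at least 1.86, or 3.63-fold. With the floor raised to the pooled 25th percentile limma called 0 genes in either direction (742 higher and 1476 lower at an unadjusted p under 0.05), and without the filter it called 214 higher and 408 lower, so every call below was lost at the higher floor. By size alone 556 genes were at least 4-fold higher (6.18%) and 1110 at least 4-fold lower (12.3%). With values under 1.05 raised to it, 359 higher and 838 lower genes remained at that size.

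The 2 pineal gland arrays differed by at least 4-fold in 210 of the same genes (2.33%). The standard deviation of their log2 difference was 0.52 for the 4604 genes whose pineal gland mean reached the pooled 75th percentile and 0.93 for the other 4399. Array 1 was brighter by a median of 0.41. The median difference of all measured genes, pineal gland minus subfornical organ, was -0.25, and it was -0.05 with array 1 alone and -0.44 with array 2 alone. Centring each array on its median changed the share of limma calls that were higher from 33.9% to 51.2%, and quantile normalization changed it to 44.6%. By size the share was 33.4%, and 46.4% after centring and 41.8% after quantile normalization. List medians are read against -0.25, and counts of calls in a list against 7.02% higher and 13.7% lower over all measured genes.

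**Figure D1:**
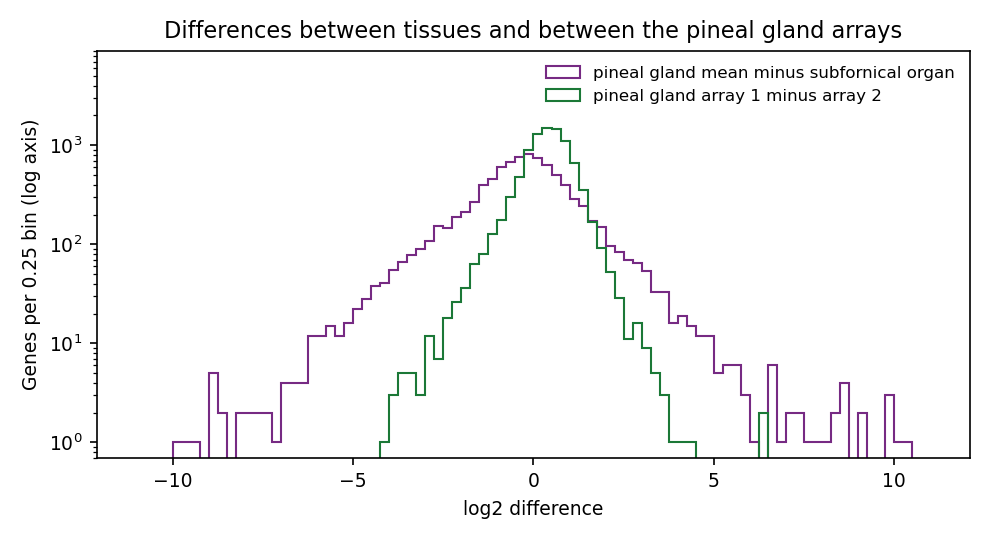
Number of measured genes (log axis, bins of 0.25) by log2 difference, for the pineal gland mean minus the subfornical organ (purple) and for pineal gland array 1 minus array 2 (green). The purple curve reaches past 8 on both sides, while 210 genes of the green curve lie beyond 2 on either side.

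**Figure D2:**
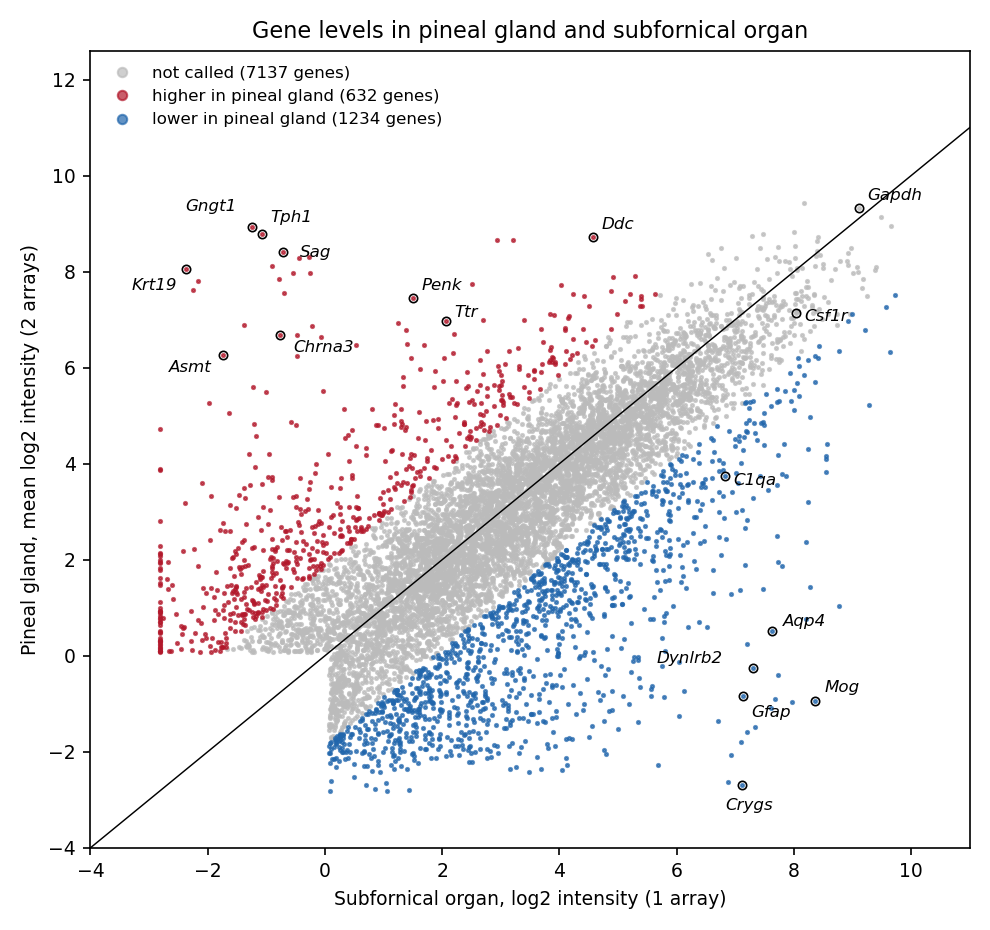
Mean log2 intensity of the 2 pineal gland arrays (vertical axis) against log2 intensity on the subfornical organ array (horizontal axis), 1 point per measured gene, with limma calls coloured and the line of equality drawn. The points farthest from the line are Tph1, Gngt1 and Krt19 above it and Mog and Crygs below it among the genes marked.

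Of 14 genes of melatonin and serotonin synthesis on the array 12 were measured, and 4 were called higher and 1 lower, with a median of 0.56. Asmt, which completes melatonin, was at 80.4 and 72.4 against 0.301, at least 72.6-fold higher. Ddc, the decarboxylase that forms serotonin, was at 491 and 363 against 23.9, 17.6-fold higher, and it was above 20 in the ependyma and total brain as well. Gch1, which makes the first step towards the cofactor of Tph1, was at 4.31 and 3.69 against 0.13, at least 3.80-fold higher. The 1 gene called lower was Gchfr, whose product holds back Gch1, at 0.883 and 1.35 against 13.9, 12.7-fold lower. Gchfr was also at 6.68 in the subcommissural organ and 11 in the ependyma. Aanat, which sets the nightly rhythm of melatonin, was at 10.9 and 10.7 against 4.44, a difference of 1.28 that limma did not call (adjusted p = 0.23). Aanat was picked out with its values known. The enzymes that break down monoamines, Maoa and Maob, had differences of -1.36 and -1.20, neither of them called. The Maob values on the pineal gland arrays lay apart, at 7.67 and 2.22 against 9.48.

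Photoreceptors turn light into a signal through a G protein, transducin, a phosphodiesterase that removes cyclic GMP and a channel that cyclic GMP holds open, and arrestin and kinases end the signal. Of 31 genes of this phototransduction chain on the array 27 were measured, 16 were called higher and none lower, with a median of 3.45 and 24 of 27 above 0. The 3 below 0, Slc24a2, Gucy2f and Slc24a1, were not called, with differences of -0.78, -0.28 and -0.22. Another measured probe of Slc24a1 gave 5.996 and 3.15 against 0.895, a difference of 2.28 the other way. The transducin subunit Gngt1 was at 444 and 531 against 0.423, at least 462-fold higher, the largest fold of the comparison by this measure. Sag, the arrestin that quenches rhodopsin, was at 338 on both pineal gland arrays against 0.609. Pdc, which binds G protein subunits, was at 392 and 256 against 0.826, and the cone transducin gene Gnat2 at 264 and 238 against 0.686, at least 301-fold and 239-fold higher. Guca1a, a calcium sensor that drives the making of cyclic GMP, was at 227 and 235 against 0.579, at least 220-fold higher. Gucy2d, a cyclase that it drives, was called higher but lay near background, at 1.55 and 1.21 against 0.184, which bounds the fold at no less than 1.30. Other members called higher were Pde6c, the catalytic subunit of the cone phosphodiesterase, at 143 and 96.1 against 0.861, and Grk1, the kinase that ends the rhodopsin signal, at 101 and 57.6 against 0.721. Gnat1, the rod transducin gene, was at 2.13 and 1.66 against 0.571, a difference of 1.72 that was not called. Pde6c, Grk1 and Gnat1 were picked out with their values known.

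Gnb1, a G protein subunit of most neurons, was at 154 and 110 against 91.5, and Pde6d at 48.1 and 43.4 against 26.9, with differences of 0.51 and 0.76, not called. The channel genes Cnga1 and Cnga3 had means under 1.05 in both tissues. For 2 members called higher, another probe showed less: Rgs9 differed by 8.25 on the probe used and by 0.65 on a second measured probe, and Gngt2 by 5.45 and -0.03. These 6 genes were picked out with their values known.

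Of 16 genes of photoreceptor structure and retinoid handling on the array 13 were measured, with 6 higher and 1 lower by limma and a median of 1.21. Prph2, which shapes the outer segment disc, was at 366 and 266 against 0.738, at least 297-fold higher. Mpp4, a scaffold of the photoreceptor synapse, was at 272 and 287 against 0.536, at least 266-fold higher. Fabp12, which binds lipids, was at 214 and 234 against 0.223, at least 213-fold higher. Tulp1, which carries proteins to the outer segment, was at 35 and 19.8 against 0.124, at least 25.1-fold higher. Rpe65, the isomerase of the pigment epithelium, was near background in both tissues, at 0.520 and 0.196 against 1.61, and was the 1 gene called lower. Rbp3, the retinoid carrier between photoreceptor and pigment epithelium, was at 1.91 and 1.83 against 2.30. Aipl1, a chaperone of phosphodiesterase, depended on the probe. The probe used gave 3.44 and 6.21 against 7.57, while another probe gave 439 and 343 against 0.457, a difference of 9.73, and the mean over its probes was 2.62.

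The start regions of these genes are shown because factors of the OTX family, to which the photoreceptor factor CRX belongs, bind the core TAATCC. The 250 bases before the annotated start were searched on both strands for TAATCC, which reads GGATTA on the other strand. RefSeq (build GRCr8) gave a start region for 31 of the measured members of both lists, and 11 of them held the core (35.5%), against 6.33% of all 27457 start regions and 4.73% of those of measured genes. The core was in 5 of the 16 members called higher (31.2%) and in 6 of the 15 not called higher (40%). Those 6 include Aipl1, whose call depended on the probe, and Rpe65, called lower near background. Over all genes it was in 5.85% of those called higher and 5.73% of those called lower. The 5 regions of members called higher that hold it are printed 5′ to 3′ with the core in capitals.
Gngt1, chr4:32960695-32960944, plus strand: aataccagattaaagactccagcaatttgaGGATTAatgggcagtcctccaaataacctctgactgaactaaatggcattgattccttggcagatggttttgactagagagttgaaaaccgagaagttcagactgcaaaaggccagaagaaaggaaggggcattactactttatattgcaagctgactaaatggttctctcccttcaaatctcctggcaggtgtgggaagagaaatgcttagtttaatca
Guca1a, chr9:21086392-21086641, plus strand: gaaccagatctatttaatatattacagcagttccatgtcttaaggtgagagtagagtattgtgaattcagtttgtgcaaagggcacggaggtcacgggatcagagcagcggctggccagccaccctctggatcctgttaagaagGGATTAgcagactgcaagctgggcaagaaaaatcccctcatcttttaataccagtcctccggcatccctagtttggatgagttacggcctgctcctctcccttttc
Prph2, chr9:21579075-21579324, minus strand: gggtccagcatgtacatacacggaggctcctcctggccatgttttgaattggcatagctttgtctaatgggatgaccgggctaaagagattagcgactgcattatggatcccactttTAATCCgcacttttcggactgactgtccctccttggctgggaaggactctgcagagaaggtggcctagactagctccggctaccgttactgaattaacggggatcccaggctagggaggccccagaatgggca
Opn1sw, chr4:58945826-58946075, minus strand: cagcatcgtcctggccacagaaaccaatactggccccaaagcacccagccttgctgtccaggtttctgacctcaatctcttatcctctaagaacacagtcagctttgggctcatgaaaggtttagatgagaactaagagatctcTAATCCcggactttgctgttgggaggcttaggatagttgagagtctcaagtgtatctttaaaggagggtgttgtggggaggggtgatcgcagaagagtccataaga
Cngb1, chr19:9732396-9732645, plus strand: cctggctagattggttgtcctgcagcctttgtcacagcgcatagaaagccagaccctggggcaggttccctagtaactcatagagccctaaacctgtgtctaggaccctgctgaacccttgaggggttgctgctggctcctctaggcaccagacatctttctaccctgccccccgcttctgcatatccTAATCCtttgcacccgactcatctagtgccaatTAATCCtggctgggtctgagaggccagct
Counted back from the start, the core began 220 bases before it in Gngt1, 106 in Guca1a, 133 in Prph2 and 106 in Opn1sw. Cngb1 held it at 62 and 29. Opn1sw, the short-wave opsin gene, was at 59.9 and 38.7 against 3.63 and Cngb1, a channel subunit, at 14.3 and 8.54 against 2.28, both shown for their start regions. A match is a string of letters and not a shown binding site.

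Of 11 transcription factors of the pineal gland on the array 9 were measured, and limma called 8 higher and none lower, with a median of 2.92. The other one, the homeobox gene Lhx9, was at 4.71 and 2.63 against 3.70, a difference of -0.07. Otx2, a homeobox factor that pinealocytes need, was at 214 and 140 against 42.2, and at 124 in the subcommissural organ. It was picked out with its values known. Pax4, a paired box factor, was at 131 and 124 against 10.6, 12.1-fold higher, and Mitf, a factor of pigment cells, at 73.3 and 45.5 against 8.04, 7.18-fold higher. Neurod4, a neuronal differentiation factor, was at 29.9 and 11.2 against 0.519 and its relative Neurod1 at 10.2 and 4.72 against 0.731, at least 17.4-fold and at least 6.61-fold higher. Crx and Isl2 were called but lay near background, Crx at 2.34 and 1.75 against 0.351 and Isl2 at 0.839 and 1.38 against 0.132. Pax6, which patterns eye and dorsal midline, was at 5.18 and 2.05 against 0.372, and stood higher still in the subcommissural organ, at 26.7.

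Of 22 regional transcription factors of the forebrain on the array 11 were measured, 5 were called lower in the pineal gland and none higher, with a median of -1.33. Tcf7l2, a Wnt effector of thalamus and oligodendrocytes, was at 11.4 and 4.30 against 59.0, 8.42-fold lower. Six6, a hypothalamic and eye factor, was at 0.418 and 0.543 against 5.70, and at 0.518 to 0.720 on the other 3 arrays. Emx2, a factor of the dorsal telencephalon, was at 0.667 and 0.617 against 4.79, and Sox2, which keeps neural progenitors and ependymal glia, at 0.0537 and 0.325 against 5.50. These 3 were lower by at least 5.42-fold, 4.56-fold and 5.24-fold, each a bound. Nkx2-1 and Dlx5, markers of ventral forebrain, were under 3 on the 3 arrays, with differences of 0.10 and 0.16 that were not called.

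The list of the adrenergic and cAMP pathway by which the gland is driven at night gave 3 genes lower and none higher of 11 measured, with a median of -0.78. The genes called were Atp7b, a copper pump, at 0.329 and 0.507 against 9.91, the receptor gene Adcyap1r1 at 15 and 9.27 against 72.5, and Adra2a, an inhibitory adrenergic receptor, at 3.95 and 4.59 against 16.7. Adrb1, the receptor through which noradrenaline acts on the gland, had a mean under 1.05 in both tissues and is no measured member. Crem, which ends the cAMP response, was at 2.67 and 2.20 against 7.83, a difference of -1.69 that was not called. Of 16 measured clock genes 2 were higher and 3 lower, with a median of -0.18 that was 0.15 after centring. Over all measured genes 7.02% were higher and 13.7% lower. Per1 and Per2, repressors of the clock that also respond to stimuli, were lower, Per1 at 0.868 and 0.660 against 6.12 and Per2 at 7.42 and 15 against 42.2. Rorb, an activator of the clock in retina and pineal gland, was higher at 11.5 and 5.13 against 1.93. The hour at which the tissues were taken is not given in the sources used here.

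Of 7 measured neuron markers 1 was higher and 3 were lower, with a median of -0.61. Syp, a protein of synaptic vesicles, was higher at 159 and 117 against 15, 9.08-fold. Thy1, a surface protein of projection neurons, was at 7.12 and 4.30 against 53.5, and Grin1, the obligatory subunit of the NMDA receptor, at 0.435 and 0.931 against 14.7. Both were lower, Thy1 by 9.68-fold and Grin1 by at least 14-fold. Total brain was at 509 for Thy1 and 151 for Grin1. Another 6 of 13 neuron genes on the array, Snap25 and Camk2a among them, had means under 1.05 in both tissues.

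Of the 3 genes that load glutamate into vesicles 2 were higher in the pineal gland, and Slc17a8 had means under 1.05 in both tissues. Slc17a6 was at 94.1 and 53.5 against 6.26, 11.3-fold, and Slc17a7 at 14 and 12.3 against 0.742, at least 12.5-fold. Of 5 measured receptor subunits of the same list 3 were called lower, Gabrb1 at 0.733 and 0.847 against 37.2, Gria2 at 1.23 and 0.448 against 6.03 and Grik1 at 0.464 and 0.114 against 5.42. Gria3 and Gria4 were not called, with differences of -0.84 and -0.80, and 5 further subunits had means under 1.05 in both tissues. Gria4 depended on the probe. Its other probes differed by -3.87, -2.60 and -1.86, the first of them at 0.916 and 0.478 against 9.65. The whole list had 2 higher and 3 lower of 8 measured, and a median of -0.82 that turned to 2.53 over the 4 genes left by a filter at the 75th percentile.

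Among nicotinic receptor subunits, Chrna3 was at 123 and 84.6 against 0.591 and Chrnb4 at 86.7 and 62.6 against 2.77, Chrna3 at least 96.9-fold and Chrnb4 26.6-fold higher. These subunits join into the receptor of autonomic ganglia, and the medial habenula, the pineal gland's neighbour, has them too. Of the other habenula markers, Pou4f1, Gpr151 and Chat had means under 1.05 in both tissues, and Wif1, Calb1, Tac1 and Calb2 had differences of 0.80, 0.47, 0.26 and -1.59, none of them called. The habenula list, which holds Chrna3 and Chrnb4 too, had 5 of 6 measured members above 0 and a median of 0.63. The remaining subunit measured, Chrnb2, was at 2.03 and 2.36 against 2.46. With the subunits near background added, the median of that list was -0.17 instead of 4.73.

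Of 23 neuropeptide genes on the array 14 were measured, 1 was higher and 6 lower, with a median of -1.13. Penk was the 1 that was higher, 61.6-fold, with 13.7 in the subcommissural organ, 13.5 in the ependyma and 46.9 in total brain. Kiss1, the precursor of kisspeptin, was at 0.337 and 0.266 against 18.6, at least 17.7-fold lower, and at 0.167 to 0.916 on the other 3 arrays. Hcrt, the precursor of orexin, was at 0.652 and 0.543 against 25.1, at least 23.9-fold lower, and reached 188 in the ependyma. Gal, the galanin precursor, was at 20.3 and 10.1 against 54.2, and Cartpt at 1.10 and 1.33 against 4.49, 3.78-fold and 3.73-fold lower.

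Agtr1a, an angiotensin receptor for which the subfornical organ is known, was at 1.96 there, beside 4.95 and 2.66 in the pineal gland and 5.33 in total brain. The difference between pineal gland and subfornical organ was not called, and 1.96 lay near the pooled median of 1.05. Agtr1b, Calcr and Nos1 had means under 1.05 in both tissues. Of 29 genes of body fluid and hormone sensing on the array 18 were measured, 2 were called higher and 7 called lower, with a median of -0.83. Scn7a, the sodium channel of sodium-sensing glia, was at 18 and 9.42 against 3.41, 3.82-fold higher in the pineal gland, and it was under 1.05 on the other 3 arrays. Avpr1a, a vasopressin receptor, was at 8.59 and 3.36 against 0.535, at least 5.11-fold higher. Higher in the subfornical organ than in the pineal gland were Ramp1, a partner of the calcitonin receptor family, at 18.8 against 1.40 and 1.26, Ace, which makes angiotensin II, at 13.4 against 2.11 and 0.788, and Casr, the calcium sensor, at 6.42 against 0.568 and 0.461. Ramp1 was higher still in the ependyma, at 75.8, and was at 14.8 in total brain. Ace was at 13.4 in total brain too, and Casr at 5.36 in the ependyma.

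**Figure D3:**
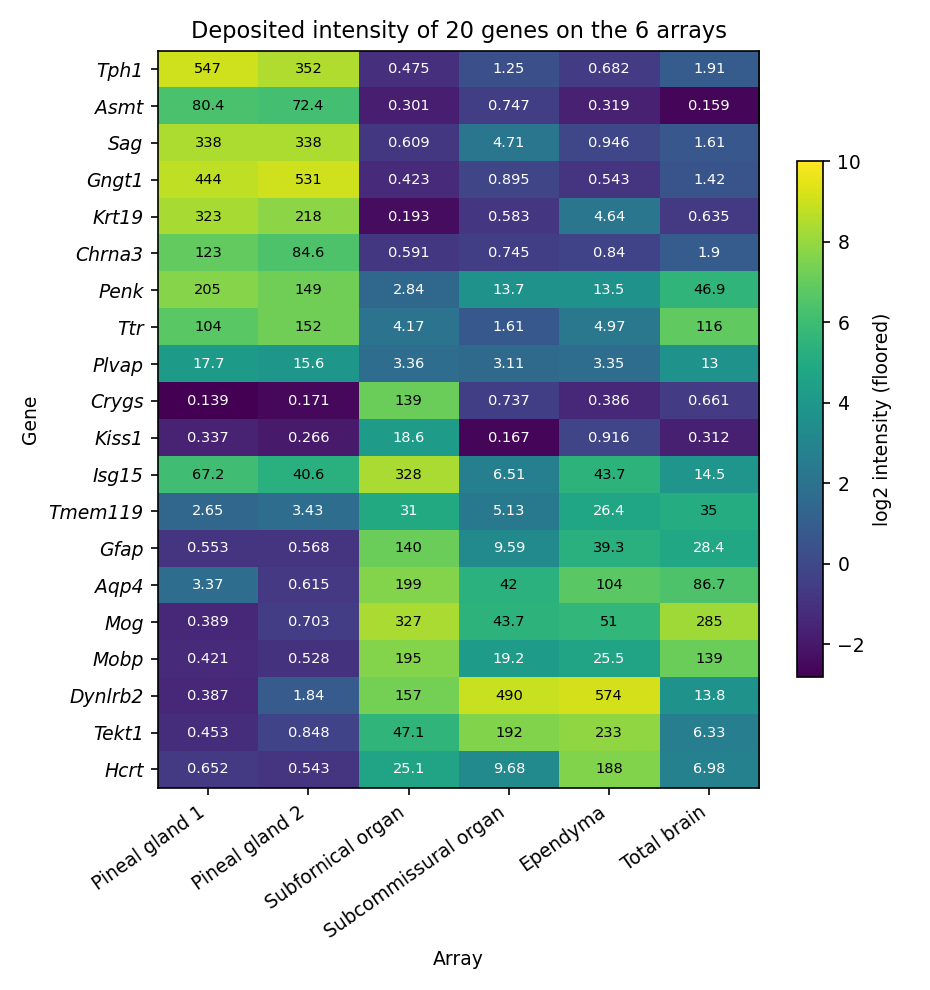
Deposited intensity of 20 genes (rows) on the 6 arrays (columns), written in each cell and coloured by log2 intensity after flooring. Genes from Tph1 to Ttr are bright on both pineal gland arrays and dim in the subfornical organ, and those from Crygs to Hcrt are brighter in the subfornical organ than on both pineal gland arrays.

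In dissected tissue such as this, fewer cells of a type and less RNA per cell cannot be told apart. Of 17 measured oligodendrocyte genes 16 were lower in the pineal gland, with a median of -5.17. Mobp, a structural myelin gene, was at 0.421 and 0.528 against 195, and Myrf, the factor that switches on myelin genes, at 1.76 and 3.90 against 177, Mobp at least 186-fold and Myrf 67.6-fold lower. The level of Mog in the subfornical organ, 327, stood beside 285 in total brain and above the 43.7 and 51 of the subcommissural organ and ependyma. Olig1, a factor of the whole lineage, was at 4.70 and 4.83 against 4.91. The same probe varied little elsewhere, at 2.50 in the subcommissural organ, 2.91 in the ependyma and 4.41 in total brain. A second Olig1 probe was under 1.05 in both tissues, at 0.328 and 0.370 against 0.638. Among the 12 lowest genes outside the lists were Bcas1, at 0.507 and 0.519 against 252, Tubb4a, at 0.831 and 0.688 against 212, and Gpd1, at 1.45 and 1.99 against 295. Ptgds, the prostaglandin D synthase, was at 0.749 and 5.70 against 437, and Scrg1 at 0.931 and 0.308 against 204. The summed intensity of the list was 86.2 and 86.8 in the pineal gland against 2150 in the subfornical organ. The part of this cell type in the other differences was not tested.

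Of 14 measured astrocyte genes 12 were lower, with a median of -3.42. Of these 12, Slc1a2 lay near background, at 0.13 and 0.528 against 1.05. The filament gene Gfap was at 0.553 and 0.568 against 140, the water channel gene Aqp4 at 3.37 and 0.615 against 199, and Fabp7, a lipid carrier of radial glia and astrocytes, at 0.361 and 0.355 against 162. Gfap was at least 133-fold, Aqp4 138-fold and Fabp7 at least 154-fold lower, and on the subfornical organ array each was above its level in total brain. Slc25a18, a mitochondrial glutamate carrier, was at 0.781 and 0.133 against 148 and at 68.5 to 177 on the other 3 arrays. Gja1, the astrocyte gap junction gene, and Slc4a4, a bicarbonate transporter, had differences of -1.56 and -1.21 that were not called. For Glul, which makes glutamine, the pineal gland arrays lay apart, at 122 and 41.5 against 303.

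Motile cilia genes were lower for 12 of 13 measured members, with a median of -4.06. Dynlrb2, a dynein light chain, was at 0.387 and 1.84 against 157, Tekt1, a filament of the ciliary microtubules, at 0.453 and 0.848 against 47.1, and Hydin, of the central pair, at 3.52 and 1.20 against 61.1. All 3 were higher still in the subcommissural organ and ependyma, where Dynlrb2 reached 490 and 574, and lower in total brain, where it was at 13.8. Dnai2 was the 1 measured member not called, at 3.53 and 2.88 against 6.07. Foxj1, the factor that defines multiciliated cells, had a mean under 1.05 in both tissues. The summed intensity of the list was 43.5 and 53.9 against 815. Among tanycyte genes 2 were higher and 4 lower of 10, with Nes, a filament of progenitors, at 2.52 and 2.98 against 17.4 and Gpr37l1, a glial receptor, at 0.460 and 0.153 against 14.

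Of 13 measured microglia and macrophage genes 9 were lower and none higher, with a median of -2.56 and all 13 below 0. Tmem119, a marker of resident microglia, was at 2.65 and 3.43 against 31, 10.3-fold lower. The complement genes C1qa and C1qb were at 10.5 and 17 against 114 and at 7.28 and 9.71 against 64.9, 8.53-fold and 7.72-fold lower. Csf1r, the growth factor receptor of microglia and all macrophages, was at 156 and 128 against 263, a difference of -0.90 that was not called. The summed intensity of the list was 232 and 237 against 795.

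Among genes of antigen presentation, Cd74, the invariant chain of MHC class II, was at 23.3 and 36.3 against 28.2, and RT1-Ba, a class II chain, at 19.7 and 35.8 against 8.32, neither called. Cd74 was picked out with its values known. Among genes induced by interferon, Isg15, a ubiquitin-like protein, was at 67.2 and 40.6 against 328, Ifi27l2b at 20.8 and 21 against 179, Bst2, which tethers viruses, at 4.95 and 2.11 against 30.4, and Mx2 at 1.62 and 1.71 against 10.5. These 4 were lower by 6.29-fold, 8.57-fold, 9.40-fold and 6.33-fold. A second probe of Mx2 differed by -0.55. Tap2 and Ifit3 were higher in the pineal gland, by at least 5.42-fold and at least 2.32-fold. Over the list 2 were higher and 7 lower of 21 measured, with a median of -1.02. The RT1 genes belong to a family of near-identical copies, and their probes may not tell members apart.

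Both organs are known for fenestrated capillaries, and Plvap, the protein of the fenestral diaphragm, was at 17.7 and 15.6 against 3.36, 4.96-fold higher in the pineal gland. Egfl7, secreted by endothelium, was at 10.2 and 14.4 against 0.233, at least 11.5-fold higher. The other 8 of 10 measured endothelial genes were not called, among them Vwf at 24.8 and 28.5 against 36.4 and Tie1 at 6.74 and 8.08 against 13.6. The list median was 0.39, and -0.28 over the 6 genes left by a filter at the 75th percentile. Its summed intensity was 88.2 and 91.2 against 78.5. Genes of the blood-brain barrier were lower for 7 of 11 measured members with none higher, and all 11 were below 0, with a median of -2.97. Cldn5, the tight junction protein of brain endothelium, was at 11.1 and 11.8 against 89.4, 7.83-fold lower. Mfsd2a, which holds back transport across the endothelium, was at 0.456 and 0.428 against 9.62, Abcb1a, an efflux pump, at 8.64 in the subfornical organ, and the amino acid transporter gene Slc38a5 at 0.615 and 0.937 against 16.1. They were lower in the pineal gland by at least 9.16-fold, 8.22-fold and 15.3-fold, each a bound. The sum over barrier genes was 66.3 and 43.0 against 239.

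Of 16 measured genes of mural cells and fibroblasts 2 were higher and 3 lower, beside 7.02% and 13.7% of all measured genes. The list median was -0.10, and 0.14 after quantile normalization. Abcc9, a channel subunit of pericytes, was at 19 and 16 against 3.33, 5.25-fold higher, and at 13.4 in total brain. A second probe of Abcc9 differed by 1.18. Cspg4, found on pericytes and on oligodendrocyte precursors, was at 5.77 and 5.14 against 44.7, Vtn at 2.21 and 1.62 against 14, and Fbln1 at 21.9 and 11.9 against 83.5. Of basement membrane and integrin genes 1 was higher and 4 lower of 17 measured, with a median of -0.60. The laminin chain Lama1 was at 0.218 and 0.236 against 17.3, at least 16.5-fold lower, Itgb4, a laminin receptor subunit, at 7.42 and 7.50 against 78.6, 10.5-fold lower, and Lama5 at 8.93 and 2.89 against 32.6. Col15a1 was the 1 that was higher, at 7.07 and 6.08 against 0.739.

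Among filaments and crystallins, Krt19 was at 323 and 218 against 0.193 and Krt15 at 126 and 83.8 against 0.723, at least 253-fold and at least 97.8-fold higher in the pineal gland. Keratins are filaments of epithelia. The crystallins are soluble proteins of the lens, and some act as chaperones elsewhere. Besides Crygs, at least 132-fold higher in the subfornical organ, Crybb1 was at 0.463 and 0.816 against 13.1 and Cryba4 at 0.225 and 0.838 against 11.4, at least 12.5-fold and at least 10.9-fold lower in the pineal gland. Cryab, the small heat shock protein, was at 4.43 and 4.71 against 31.1, 6.80-fold lower. Crygn, Cryba1 and Cryba2 had means under 1.05 in both tissues. The whole list had 2 higher and 7 lower of 15 measured.

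Of 20 choroid plexus genes on the array 13 were measured, and 5 were higher and 3 lower, with a median of -0.07 that was 0.11 after quantile normalization and 0.26 after centring. Col8a1, a network collagen, was at 321 and 194 against 0.841, Kcne2, a potassium channel subunit, at 58.5 and 34.8 against 0.497, F5, a clotting factor, at 50.6 and 22.2 against 0.320, and Ttr, which carries thyroid hormone, at 104 and 152 against 4.17. Ttr was 30.2-fold higher, and Col8a1, Kcne2 and F5 by at least 238-fold, 42.9-fold and 31.9-fold, each a bound. Ttr was at 116 in total brain. A second probe of Kcne2 differed by 0.40. Further markers of choroid plexus, Kl, Clic6, Aqp1 and Kcnj13, had means under 1.05 in both tissues, and Folr1 was at 3.09 and 8.81 against 11. Slc13a4, a sulfate transporter, and Igfbp2, which binds insulin-like growth factors, were 11.5-fold and 14-fold lower in the pineal gland, at 3.28 and 5.36 against 48.2 and at 5.48 and 4.81 against 72.1.

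Of peripheral nerve genes 2 of 6 measured were lower, Sox10, a factor of myelinating glia that the oligodendrocyte list holds too, and Pmp22, at 25.4 and 14.2 against 99.1. Th and Dbh, which make noradrenaline in sympathetic fibres, were not called, Th at 0.842 and 1.02 against 2.00 and Dbh at 0.455 and 0.348 against 1.37. Blood cell genes were uneven between the pineal gland arrays. Alas2, of heme synthesis in red cells, was called lower at 5.92 and 30.7 against 54.3, and Pf4, of platelets, at 1.19 and 13.9 against 9.85, so the list median was -1.54 with array 1 alone and 0.22 with array 2 alone. Immediate early and stress genes had no member higher and 2 lower of 9, Arc and Gadd45b, both near background in the pineal gland, while Fos was at 15.7 and 17.6 against 6.32, not called. Of 9 housekeeping genes 1 was called. Hprt1, of purine salvage, was 4.43-fold higher, at 178 and 110 against 31.5, and its 9 probes above 10 on the 3 arrays differed by 1.86 to 2.48. Groups of these probes gave nearly equal values on each array, so the probes are not independent measurements. Gapdh, of glycolysis, was at 658 and 625 against 555.

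**Figure D4:**
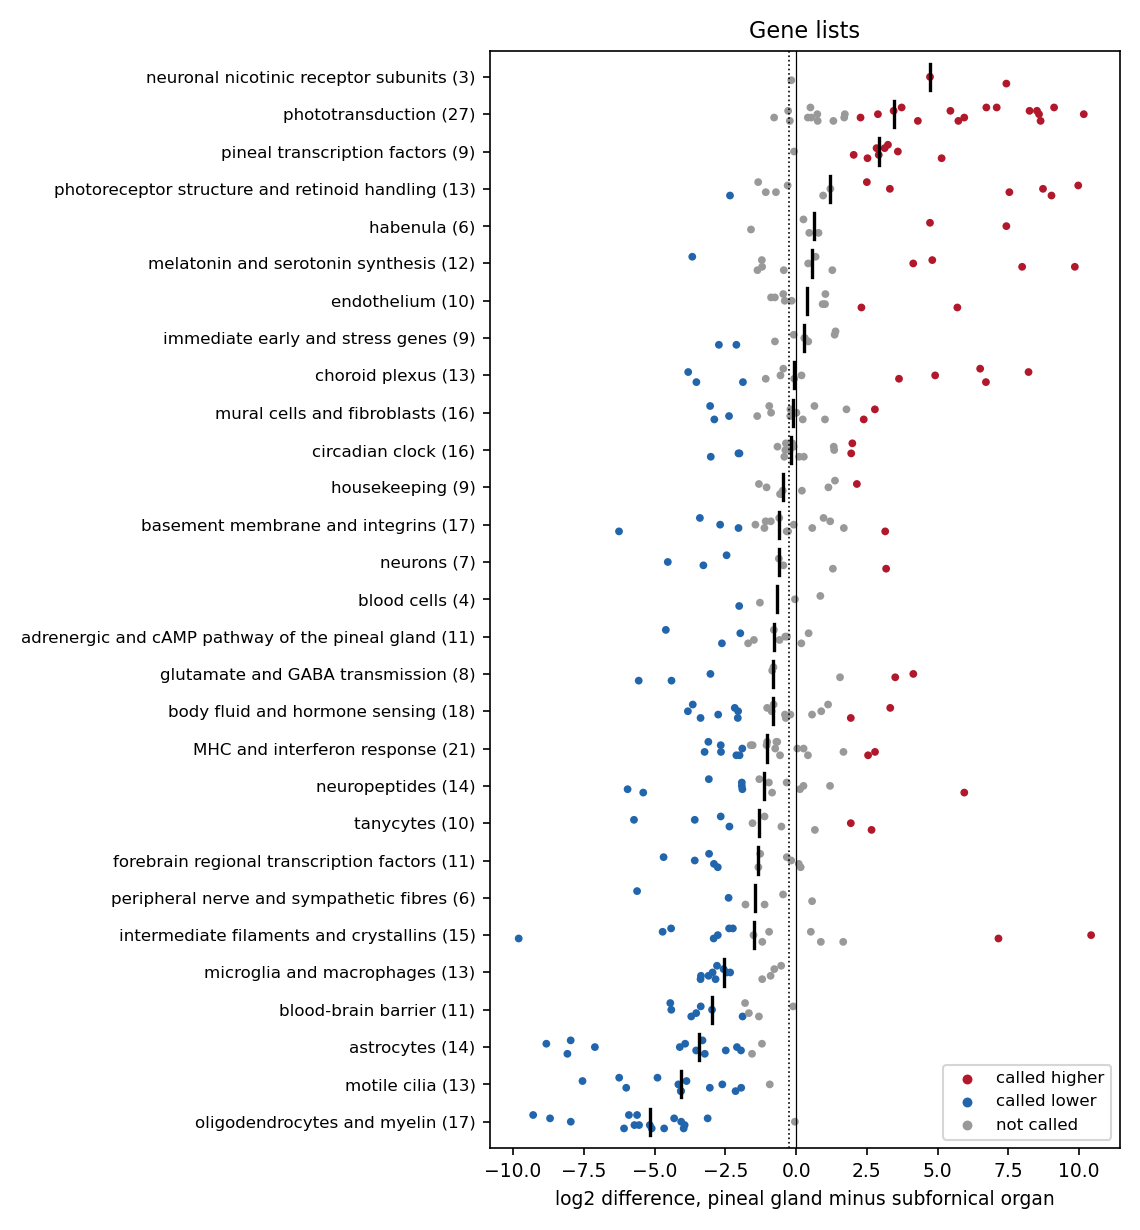
Log2 difference, pineal gland minus subfornical organ, of each measured member (points) of 29 gene lists, ordered by median (bars), with the number measured in brackets and limma calls in colour. The dotted line is the median of all measured genes, -0.25. All measured motile cilia and astrocyte genes lie to its left, as do the oligodendrocyte and barrier genes other than Olig1 and Slc7a5, and phototransduction genes and pineal transcription factors mostly to its right.

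Of the 632 genes called higher, 90 (14.2%) had both pineal gland arrays at least 4-fold above all 4 other arrays, with values under 1.05 raised to it. Of the 1234 called lower, 62 (5.02%) had the subfornical organ at least 4-fold above all 5 others, and 141 (11.4%) had both pineal gland arrays at least 4-fold below all 4 others. The subfornical organ was within 2-fold of total brain for 48.3% of genes called lower and 50.2% of genes called higher. For the ependyma the shares were 43% and 59.7%, and for the subcommissural organ 31.3% and 55.1%. Values under 1.05 were raised to it here too, so arrays that were all dim counted as within 2-fold. For none of the shares in this paragraph was the share over all measured genes computed, so none can be read as particular to the genes called. The 4-fold patterns set 2 arrays against 4 or 1 array against 5, so 14.2%, 5.02% and 11.4% cannot be compared with each other. Genes of the subfornical organ pattern, picked out with their values known, were led by Crygs and by Rgs19, which speeds the turning off of G proteins, at 65.9 against 0.415 and 0.418 in the pineal gland and at most 1.40 on the other 3 arrays. Vax1, a homeobox factor of the ventral forebrain, was at 27.9 against 0.148 and 0.399, with 3.20 in the ependyma. Cbs, which makes cystathionine, was at 58.5 against 4.53 and 1.99, and Tubb6, a tubulin, at 35.2 against 2.30 and 3.04. Reln, a secreted guidance protein, had the pineal gland pattern of low values, at 0.297 and 0.193 against 122, and was between 28.6 and 104 on the other 3 arrays. Outside the lists, Miox, which breaks down inositol, was at 202 and 192 against 0.211 and at most 1.59 on the other 3 arrays.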

How the data were processed

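The deposited table gives a processed intensity for every probe and array, on a linear scale by its range. The scanner, background correction and scaling are not given in the sources used here. RNA was read in the CY5 channel, per the labels' protocols. The filler value for missing spots was treated as no value. Of the probes, 16865 had a single symbol in the platform annotation, 165 several, while 18099 had no entry. Symbols were checked by gene identifier against RefSeq (GRCr8), which held 16836 of them, and 1 was updated. A floor was set at 0.142, the pooled 5th percentile, before taking log2. Each gene was represented by the probe with the highest mean log2 over the 6 arrays, and 30 of 261 genes at 4-fold with a further measured probe had it on the opposite side of 0. No detection call was used, so the limit of detection is unknown. Array medians lay between 1.04 and 1.07, and the number of arrays limits precision.

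Tests used limma 3.58.1 in R 4.3.3 (lmFit and eBayes, two-sided, Benjamini-Hochberg over all 9003 genes). There was 1 residual degree of freedom, that of the pineal gland duplicates, and the lone subfornical organ array was assumed to vary likewise. eBayes returned a single spread for all genes. The code was tested on simulated data. The 4-fold rule also asked that both pineal gland arrays lay on 1 side. Genes named were Tph1, Penk, Crygs and Mog, the 12 highest and 12 lowest by bounded difference among calls where each pineal gland array was 4-fold away, and up to 4 members at each end of each list. Other genes are marked as picked out with their values known, or are list members with means under 1.05. Penk had been set down as a subfornical organ marker and was higher in the pineal gland. The members, lists and comparisons were chosen with earlier results of these data known. Alternatives changed the scaling, filter, floor, choice of probe, variance model and arrays, 1 at a time. Python 3.11.15 was used for tables.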

Additional observations from a re-analysis of the deposited data

How the results depend on the processing

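The counts at 4-fold, 556 higher and 1110 lower, moved by more than 1.5-fold only for higher genes, to 314 with a filter at the pooled 75th percentile and to 359 with both sides raised to the pooled median, an alternative added after seeing the data. Leaving out 1 pineal gland array gave 494 to 716 higher and 1026 to 1265 lower, with no test. Counting every named probe on its own, also added later, gave 730 and 1365.

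The limma counts were less stable. A floor at the pooled 25th percentile left 0 calls in either direction, with 742 higher and 1476 lower at an unadjusted p under 0.05. All calls among the genes named, 136, were lost there, while 496 higher and 1024 lower genes were past 4-fold. Without a filter limma called 214 higher and 408 lower, quantile normalization left 571 lower (459 higher), and centring gave 962 higher and 918 lower. No call among 220 genes named reversed under another setting, except Aipl1, not called, which went to 2.62 and was called with the mean of all probes.

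The pineal gland pair differed 4-fold in 210 genes, in 439 without a filter and in 56 with the filter at the 75th percentile. List medians that changed sign were those of nicotinic subunits (-0.17 without a filter), glutamate and GABA transmission (2.53 with the 75th percentile filter), choroid plexus (0.11 after quantile normalization, 0.26 after centring, 1.92 with the 75th percentile filter), endothelium (-0.16 without a filter and with the higher floor, -0.28 with the 75th percentile filter), circadian clock (0.15 after centring, 0.03 with the mean of probes, 0.22 without array 2), mural cells and fibroblasts (0.14 after quantile normalization, 0.22 after centring, 0.24 without array 2) and blood cells (0.22 without array 1). The cause of these changes was not tested. No paired analysis was possible because the subfornical organ had 1 array.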

Other observations

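Probes without a gene name also separated the tissues. Of 18005 such probes with a value on all arrays, 8980 were measured, and 1040 were at least 4-fold higher in the pineal gland and 1114 at least 4-fold lower, 24% in all. Of 10998 measured probes with a gene name, each counted on its own, 730 were higher and 1365 lower, 19% in all. Across the 9003 measured genes, which are not independent replicates, the subfornical organ correlated with the ependyma at r = 0.83, with total brain at 0.79 and with the subcommissural organ at 0.77, and with the pineal gland arrays at 0.69 and 0.70. The pineal gland pair correlated at 0.94. A gene counted as measured when the pineal gland or the subfornical organ reached 1.05, whatever the other tissues showed. The filter so treats the pairs of tissues unequally, and these r values cannot rank the tissues by likeness.

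Prph, a filament of peripheral neurons, lay apart on the pineal gland arrays, at 17.4 and 151 against 264 in the subfornical organ. It was picked out with its values known.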
